A study of Homo sapiens with 12 samples.

Results

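The comparison set the doxycycline-treated miR-139 line of CAL62 cells against the doxycycline-treated scrambled line. CAL62 is an established line from an anaplastic thyroid carcinoma, an aggressive and poorly differentiated thyroid tumour. By label the first line expresses mature hsa-miR-139-5p and the second a control of scrambled sequence. Both groups were given 1 µg/ml doxycycline for 96 h, so the drug is common to them and only the expressed small RNA and the history of each line differ by label. The 6 treated libraries, 3 per line, were chosen by their column names out of 12 libraries in all. The other 6 came from the same lines without doxycycline and served here as the background. By label they were taken at the start of the 96 h, and no library was kept for 96 h without the drug. Below, untreated and without doxycycline stand for these start libraries. Between them and the treated ones, drug and time in culture changed together, and their parts were not tested apart. The sources do not say whether each line is a clone or a pool, or whether libraries of a line came from separate cultures, so p-values measure the spread between these libraries. Each column name carried a tag, C, NE or TR, and libraries of the lines were paired by that tag. The sample titles carry the letters A, B and C, and no source used here maps tags to letters. Nor do the sources say that a tag marks a replicate or a pair, so the pairing is an assumption. Values below are listed in the order C, NE, TR. The unit is FPKM, fragment counts corrected for the length of the transcript and the size of the library, and differences are miR-139 minus scrambled on log2(FPKM + 1), a scale that understates differences of low genes.

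MicroRNAs are short RNAs that guide Argonaute proteins to messenger RNAs, mostly by pairing of the seed, bases 2 to 8 of the miRNA, with sites in the 3′ UTR. Pairing lowers translation and shortens the life of the messenger. miR-139-5p is transcribed from within PDE2A and has been described as a tumour suppressor that is low in thyroid carcinomas. The title of the series names HNRNPF, an RNA-binding protein that binds G-rich sequence and regulates splicing and polyadenylation, as its partner.

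The mature miRNA is shown first because its seed defines the sites below. It is 23 bases long, lies at chr11:72615102-72615124 on the minus strand (RefSeq, GRCh38.p14), and has its seed in capitals.
hsa-miR-139-5p: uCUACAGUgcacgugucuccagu

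The complement of the seed in a messenger is ACTGTAG, and the 8-mer form ACTGTAGA adds an A opposite the first base of the miRNA. The search was made on the sense strand of 1 3′ UTR per gene, the longest annotated (GENCODE 29, GRCh38, all 5 sites below in the last exon on the minus strand), with the match in capitals. These are the genes with a match among the 30 that differed between the treated lines. The 7-mer parts lie at chr10:43386151-43386157 in HNRNPF (exon 4 of 4, bases 480 to 486 of a 3′ UTR of 1020), at chr11:10797459-10797465 in EIF4G2 (exon 22 of 22, bases 351 to 357 of 766) and at chr2:215361144-215361150 in FN1 (exon 45 of 45, bases 405 to 411 of 1115). In NRP1 the site is at chr10:33179542-33179548 (exon 18 of 18, bases 528 to 534 of 2584) and in RAPGEF3 at chr12:47736076-47736082 (exon 28 of 28, bases 1485 to 1491 of 3200).
HNRNPF: caatactaatACTGTAGgaattggtga
EIF4G2: aacactgaatACTGTAGAaatgcactt
FN1: ggcccgcaatACTGTAGgaacaagcat
NRP1: tttttaaagtACTGTAGcctcagtact
RAPGEF3: aacacataaaACTGTAGctcctgcctc
Of these 5 genes, HNRNPF and EIF4G2 were lower in the miR-139 line and FN1, NRP1 and RAPGEF3 were higher. The 7-mer was present in 895 of 7922 tested genes with an annotated 3′ UTR (11.3%), and in 5 of the 26 genes with one among those that differed. A match describes letters in the window and is no evidence of binding.

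Between 9518 and 9884 of 37471 genes reached 1 FPKM in each treated library, and 9781 with a mean of at least 1 FPKM over the 6 were tested. The thyroid transcription factor PAX8 was at 56.0 to 142 FPKM and the epithelial keratin KRT8 at 462 to 832, while the thyroid factor NKX2-1 was listed at 0 in all 6, the thyrotropin receptor TSHR did not exceed 0.0128 and the epithelial cadherin CDH1 did not exceed 0.0408. Of the leukocyte markers in the table, 6 of 9 were at 0 in all 6 libraries and CD68 alone reached 1 FPKM. The NE libraries stood apart in both lines: mitochondrially encoded genes held 7.555% (miR-139) and 6.085% (scrambled) of the summed FPKM there, against 12.6% to 13% in C and TR. Calls that depend on the NE pair are named below. The spacing of low FPKM values gave depths between 0.931 and 1.38 times that of the scrambled C library.

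HNRNPF, the gene named by the series, showed the clearest difference. In the treated miR-139 libraries it was at 96.7, 113 and 85.9 FPKM, and in the treated scrambled libraries at 198, 265 and 184. All 3 miR-139 libraries lay below all 3 scrambled ones, with a mean of 98.5 ± 13.7 against 215.8 ± 43.3 (SD, n = 3). The log2 difference was −1.11 (SE 0.11, limma adjusted p = 2.51e-05), 2.16-fold lower. It was −1.03, −1.22 and −1.09 within the tags, and stayed past the threshold without any one pair of libraries. The mature miRNA was not measured in these libraries of polyA RNA, and its hairpin gene was listed at 0 in every library.

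**Figure D1:**
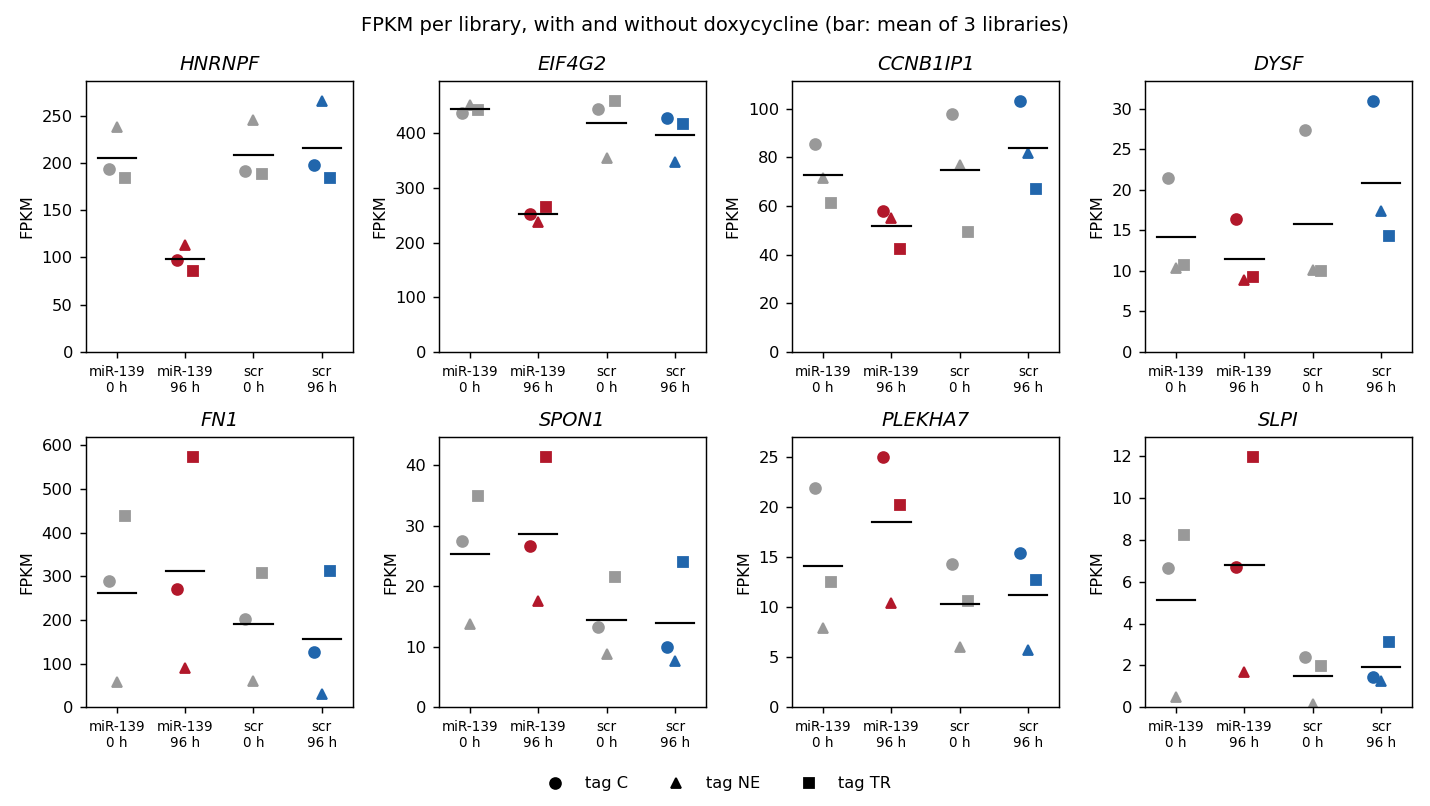
FPKM (y axis, from 0) of 8 genes in each library by line and time with doxycycline (x axis), with symbols for the tags, colours for the treated libraries, grey for the untreated ones and bars for the mean of 3 libraries. For HNRNPF and EIF4G2 the treated miR-139 libraries lie below the other 9, whereas FN1, SPON1 and SLPI spread widely between tags within each group.

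Across the tested genes, 30 differed between the treated lines in limma with the tag as a replicate block (0.307% of 9781), 17 higher (0.174%) and 13 lower (0.133%) in the miR-139 line. The largest adjusted p among them was 0.0485 and the next gene outside had 0.0592. Differences were small for most genes: the median was −0.01, the quartiles were −0.10 and 0.08, and 110 genes (1.12%) differed by at least 0.5 in either direction. All 30 had the same direction in the 3 tags, as did 2770 genes (28.3%) among all tested. At the unadjusted level, 781 genes (7.98%) had p under 0.05.

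The calls rest on the pairing. Without the block, limma called 0 genes (0%) and 87 had p under 0.05 before adjustment, while the median SE rose from 0.12 to 0.20. Over the tested genes, 75% of the sum of squares went with the tag and 9.92% with the line. A blocked fit of all 12 libraries called 11 genes (0.112%), all of them among the 30. With no filter on low values no gene passed in the blocked limma fit (0 calls), and 996 had p under 0.05 before adjustment.

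**Figure D2:**
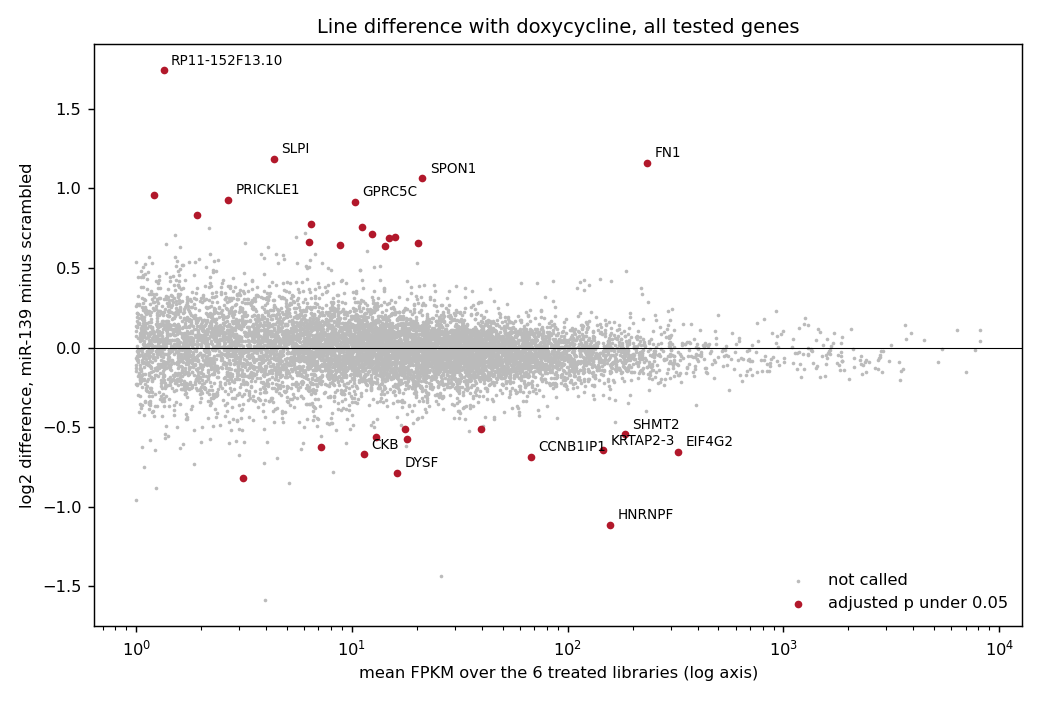
Log2 difference between the treated lines (y axis, miR-139 minus scrambled) against mean FPKM over the 6 treated libraries (x axis, log scale) for the 9781 tested genes, with the 30 called genes in red. HNRNPF at −1.11 and FN1 at 1.16 lie far from genes of similar level, and most genes lie within 0.5 of 0.

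Among RNA-binding and translation genes, EIF4G2 was lower beside HNRNPF. EIF4G2 encodes an EIF4G-related factor that lacks the cap-binding partner's site and serves cap-independent initiation. It was at 252, 238 and 264 FPKM in the miR-139 libraries and at 428, 347 and 418 in the scrambled ones, so the groups did not overlap. The log2 difference was −0.65 (SE 0.12, limma adjusted p = 0.0148), and without the C pair the adjusted p was 0.264.

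CCNB1IP1, an E3 ubiquitin ligase known from meiotic recombination, was also lower without overlap, at 57.8, 54.9 and 42.1 FPKM against 103, 81.9 and 67.1 (log2 −0.68, SE 0.10). It remained called without any one pair of libraries. DYSF encodes dysferlin, which patches torn plasma membrane in muscle. It was at 16.4, 8.89 and 9.20 FPKM against 30.9, 17.4 and 14.3, lower within every tag although the C library of the miR-139 line overlapped the scrambled TR library (log2 −0.79, SE 0.11, limma adjusted p = 0.00249).

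SHMT2, the mitochondrial hydroxymethyltransferase that feeds serine into one-carbon metabolism, was lower at 160.4, 173 and 111 FPKM against 249, 259 and 149 (log2 −0.55, SE 0.11). The groups overlapped, and the call was lost without the C pair. CKB, the brain-type creatine kinase, was at 8.15, 9.36 and 7.93 FPKM against 11.4, 18.5 and 13.2 (log2 −0.67, SE 0.12), with no overlap, and AOX1, an aldehyde oxidase, at 5.87, 5.39 and 4.99 against 10.2, 8.27 and 8.25 (log2 −0.62, SE 0.12), again with no overlap. Both calls were lost without the NE pair, and that of AOX1 also without the C pair. L3HYPDH, a dehydratase of hydroxyproline, differed by −0.56 and PLTP, which transfers phospholipids between lipoproteins, by −0.51. These 2 calls were lost on leaving out any one of the pairs.

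The remaining lower genes were a mixed set. ADM, the vasodilator peptide adrenomedullin, was at 22.7, 34.8 and 38.4 FPKM against 27.9, 53.6 and 60.6 (log2 −0.51, SE 0.11), and its call was lost without the NE or the TR pair. KRTAP2-3, a hair keratin-associated protein, differed by −0.65 (SE 0.13). It belongs to a cluster of near-identical genes, so its FPKM is uncertain. KRTCAP3 differed by −0.58 and HES7, a repressor of the segmentation clock, by −0.82 from a level of 0.865 to 6.64 FPKM. The calls of KRTAP2-3, KRTCAP3 and HES7 were lost without the NE pair. Over the 13 lower genes the fold ran from 1.43 to 2.16, and 7 had groups that did not overlap, against 407 genes (4.16%) among all tested.

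FN1 and SPON1, both matrix proteins, had the smallest p among the higher genes. FN1, fibronectin, a matrix glycoprotein bound by integrins and a common mesenchymal marker, was at 272, 90.6 and 574 FPKM in the miR-139 libraries and at 126, 31.4 and 312 in the scrambled ones. The groups overlapped because each tag had its own level, but within every tag the miR-139 library was higher, by 1.10, 1.5 and 0.88 (mean 1.16, SE 0.12, limma adjusted p = 5.09e-05). SPON1, the matrix protein F-spondin, was at 26.7, 17.6 and 41.4 FPKM against 9.98, 7.63 and 24.1 (log2 1.07, SE 0.12, limma adjusted p = 1.01e-04). FN1 and SPON1 remained called without any one pair of libraries.

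SLPI, a secreted inhibitor of neutrophil proteases, was at 6.71, 1.67 and 12 FPKM against 1.43, 1.26 and 3.11 (log2 1.19, SE 0.21, limma adjusted p = 0.0139). Its difference was 1.66 in both C and TR and 0.24 in NE. SLPI missed the threshold in the fit of all 12 libraries (adjusted p = 0.26).

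Of the genes of junctions and planar polarity, 2 were higher. PLEKHA7, which links the adherens junction to microtubule minus ends, was at 25, 10.4 and 20.2 FPKM against 15.4, 5.73 and 12.7 (log2 0.69, SE 0.11), close to the same difference in every tag. PRICKLE1, a core protein of planar cell polarity, was at 5.11, 2.15 and 4.17 FPKM against 1.93, 0.586 and 2.1 with no overlap (log2 0.93, SE 0.15). The call of PRICKLE1 was lost without the NE pair, that of PLEKHA7 in none of the fits without a pair.

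GPRC5C, an orphan receptor of the family induced by retinoic acid, was higher at 10.3, 6.42 and 24.0 FPKM against 6.32, 2.01 and 13.2 (log2 0.92, SE 0.13, limma adjusted p = 0.0027). TSPAN18, a tetraspanin that organizes membrane partners, was at 19.2, 15.5 and 39.0 FPKM against 12.1, 7.94 and 28 (log2 0.66, SE 0.11). NRP1, a co-receptor for semaphorins and VEGF, was at 11.3, 11.7 and 28.4 FPKM against 5.53, 7.45 and 21.2 (log2 0.64, SE 0.12). In these 3 genes TR was the highest library of both lines, and the groups overlapped.

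RAPGEF3, the cAMP-activated exchange factor EPAC1 for Rap GTPases, was at 7.19, 6.58 and 19.8 FPKM against 4.06, 4.77 and 10.5 (log2 0.65, SE 0.13). SLC48A1, which overlaps it on the opposite strand, differed by 0.38 (adjusted p = 0.23), and reads of such a pair can be told apart only where counting uses strand, which the sources used here do not give. LYPD1, a small GPI-anchored protein, was higher by 0.66 (SE 0.13) and GABRE, the epsilon subunit of the GABA-A receptor, by 0.72 (SE 0.14). Without the NE pair the calls of TSPAN18, NRP1, LYPD1 and GABRE were lost. Without C those of NRP1 and LYPD1 were lost, and without TR those of RAPGEF3 and LYPD1.

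Transcripts with clone-based names, a nested gene and a pseudogene were also among the 17 higher genes. RP11-152F13.10 had the greatest difference among the 30, at 1.19, 3.31 and 3.45 FPKM against 1.29e-14, 0.122 and 2.80e-19 (log2 1.74, SE 0.20), so it was all but missing from the scrambled libraries. It passed the filter of 1 FPKM only through the miR-139 libraries (mean 2.65 against 0.04). A high level in that line was thus a condition of its test. AL034548.1 was higher by 0.78 and AC016683.6 by 0.76, the latter by only 0.10 in TR. TIAF1, whose gene lies within MYO18A on the same strand, was higher by 0.84 while MYO18A differed by −0.02. HMGN1P4 is a processed copy of HMGN1, and its difference of 0.96 at 0 to 2.46 FPKM is uncertain. HMGN1P4 too passed the filter only through the miR-139 libraries (mean 1.89 against 0.526 FPKM). With the filter at 5 FPKM neither HMGN1P4 nor RP11-152F13.10 was tested. The calls of AC016683.6, TIAF1 and HMGN1P4 were lost without the NE pair. Over the 17 higher genes the fold on this scale ran from 1.55 to 3.34, the latter that of RP11-152F13.10. In 3 of them the groups did not overlap, against 4.16% of all tested genes. These were PRICKLE1, RP11-152F13.10 and HMGN1P4. Since RP11-152F13.10 and HMGN1P4 passed the filter only through the miR-139 libraries, the share of higher genes without overlap is not comparable with that of all genes.

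Besides the 30, genes at 5 FPKM or more with large differences of one direction in every tag missed the threshold. NR4A1, an immediate-early nuclear receptor, was at 4.34, 3.04 and 2.44 FPKM against 5.18, 5.37 and 10.1, without overlap (log2 −0.85, SE 0.19, limma adjusted p = 0.0727). DAAM1, a formin of planar polarity signalling, differed by 0.72 (SE 0.16, limma adjusted p = 0.0606), the lipase maturation factor LMF1 by −0.64, ANO1-AS1 by 0.69 and RP11-386M24.4 by −0.62.

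**Figure D3:**
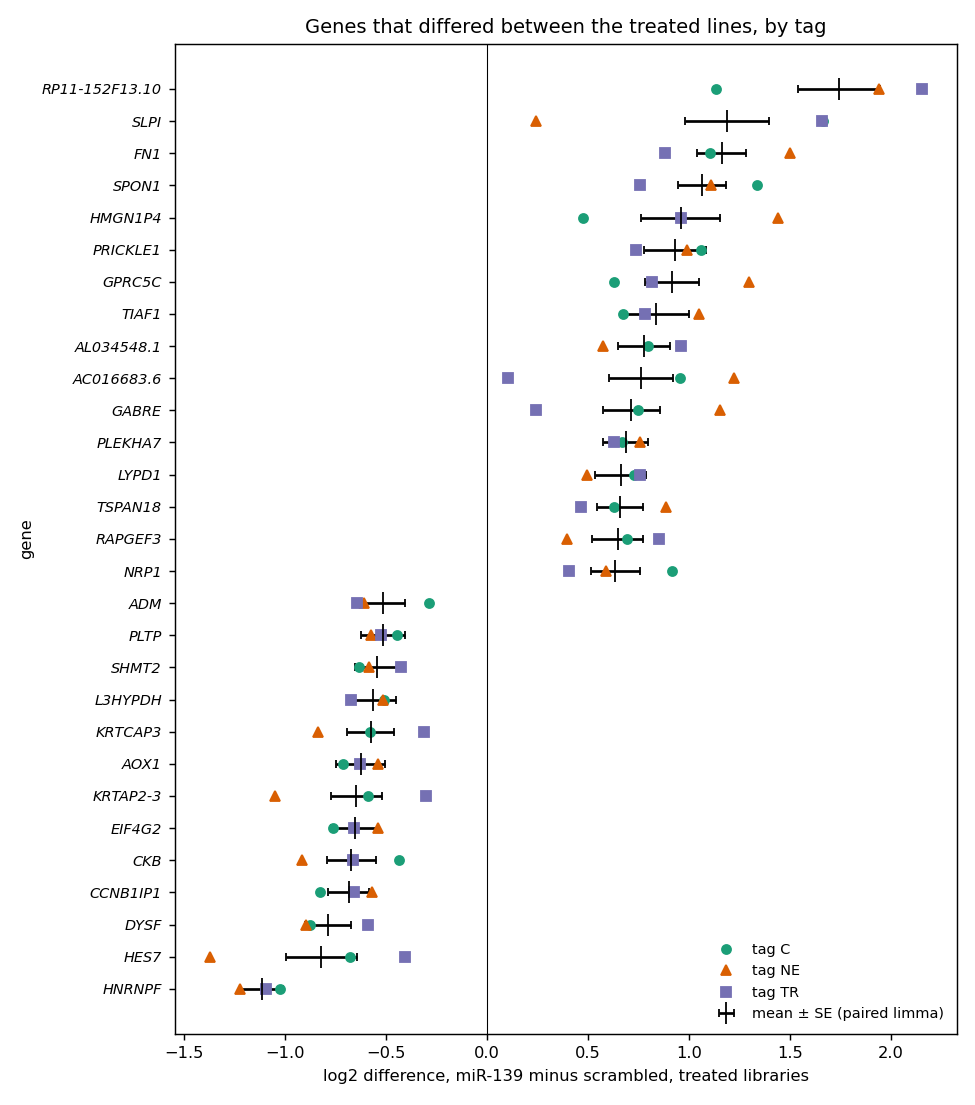
Log2 difference between the treated lines (x axis) for 29 of the 30 called genes (y axis), within each tag as symbols and as the mean ± SE of the paired limma fit in black. Every symbol lies on the same side of 0 as its mean, and the spread between tags is narrow for HNRNPF and PLEKHA7 and wide for SLPI and HES7.

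The same lines at the start, without doxycycline, gave the background. They differ from the treated libraries in time in culture as well as in the drug. Before treatment limma with the block called 4 of the 9781 genes (0.0409%), all higher in the miR-139 line, and 207 had p under 0.05 before adjustment. SLPI (log2 1.06, SE 0.20) and SPON1 (log2 0.76, SE 0.15) were 2 of them, so both differed between the lines without doxycycline as well. The 17 higher genes had a median of 0.78 with and 0.32 without doxycycline, and 14 of 17 were positive without it. The 13 lower genes had medians of −0.65 and −0.07, and 8 of 13 were negative without it. FN1 differed by 0.32 (SE 0.14), GPRC5C by 0.35, PLEKHA7 by 0.38 and ADM by −0.31 in the untreated lines. RP11-152F13.10 was at 0.79 there (SE 0.22, limma adjusted p = 0.796), above SPON1. HMGN1P4 was at −0.95 (SE 0.23, limma adjusted p = 0.17), opposite to its 0.96 with doxycycline, from libraries listed at 0 to 1.84 FPKM. Within 0.1 of 0 there were 5 of the 17 higher and 7 of the 13 lower genes. Among them were HNRNPF (−0.02), CCNB1IP1 (0.00), DYSF (−0.07), TSPAN18 (−0.07) and PRICKLE1 (0.09), with SE of 0.14 to 0.19. The untreated tags of each of these named genes differed in sign, by little in HNRNPF (0.02, −0.05 and −0.03) and by more in PRICKLE1 (0.17, −0.33 and 0.44).

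Levels in the 4 groups show on which side the lines parted. CCNB1IP1 averaged 72.7 ± 12.3 FPKM untreated and 51.6 ± 8.31 treated in the miR-139 line (SD, n = 3), where the scrambled line had 74.8 ± 24.2 and 84.1 ± 18.1. DYSF averaged 14.2 ± 6.32 untreated against 11.5 ± 4.26 treated in the miR-139 line and 15.8 ± 9.98 against 20.9 ± 8.84 in the scrambled line. KRTAP2-3 was at 107.6 ± 43.8 and 111 ± 31.3 in the miR-139 line, whereas the scrambled line had 93.2 ± 26.3 untreated and 182 ± 72.8 treated. For KRTAP2-3 it is thus the mean of the treated scrambled libraries that stands apart, and for HNRNPF and EIF4G2 that of the treated miR-139 libraries. AC016683.6 averaged 12.1 and 12.05 FPKM in the untreated lines and 13.7 and 8.51 in the treated ones. FN1 was 262 ± 191 untreated and 312 ± 244 treated in the miR-139 line, against 190.5 ± 125 and 156 ± 143 in the scrambled line.

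The test of the difference between the treated and the untreated line difference, over all 12 libraries with the block, called 1 gene (0.0102%), HNRNPF, at −1.09 (SE 0.11, limma adjusted p = 0.00168), and 337 genes had p under 0.05 before adjustment. That call was lost without the C pair (−1.12, adjusted p = 0.458), without NE (−1.05, adjusted p = 0.0629) and without TR (−1.11, adjusted p = 0.0821), with little movement of the value. For EIF4G2 the difference was −0.74 (SE 0.14, adjusted p = 0.528), for CCNB1IP1 −0.69 (SE 0.14), for TSPAN18 0.73 (SE 0.16) and for FN1 0.84 (SE 0.22). None of those passed over all genes. For SLPI it was 0.13 (SE 0.44) and for SPON1 0.31 (SE 0.19).

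**Figure D4:**
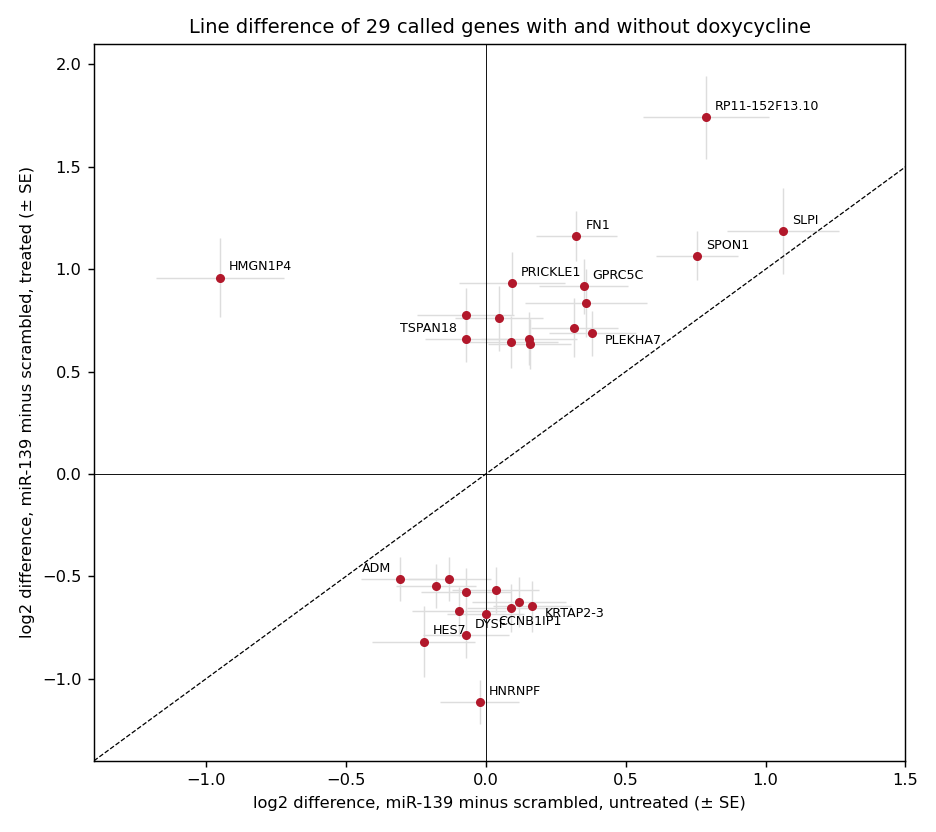
Log2 difference between the lines with doxycycline (y axis) against that without it (x axis) for 29 of the 30 called genes, ± SE of the limma fits, with a dashed line where both are equal. SLPI and SPON1 lie at 1.06 and 0.76 on the x axis, and the 13 lower genes lie between −0.31 and 0.16 on it.

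Gene lists were described by counts and medians, to be read beside the median of −0.01 and the shares called over all tested genes (0.307%, with 0.174% higher and 0.133% lower). Lists and members were chosen with earlier results of these data known. A called member in a short list is thus no sign of enrichment. Counts of positive and negative members are to be read beside the 47.2% of all tested genes that were positive. The smallest difference among the lower calls was −0.51 and among the higher calls 0.64, but these are no detection limits. NR4A1 (−0.85) and DAAM1 (0.72) differed by more and were not called. A count of 0 called thus does not show that the members of a list were unchanged. Of 26 tested targets of miR-139-5p named in the literature, HNRNPF and EIF4G2 were called lower and 0 higher, and the list split into 13 positive and 13 negative with a median of −0.005 (0.08 in the untreated lines). MMP11, a stromal metalloproteinase, differed by −0.34 (SE 0.14), the AP-1 subunit JUN by −0.25 (SE 0.11) and the fibronectin receptor subunit ITGA5 by −0.24 (SE 0.10), with limma adjusted p from 0.517 to 0.533. The receptors CXCR4 and IGF1R differed by 0.23 (SE 0.15) and 0.04 (SE 0.12). Because HNRNPF is the gene the series was built around, its place in that list is no independent evidence.

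The other RNA-binding proteins tested did not follow HNRNPF. Of 28 listed hnRNP genes 18 were in the table and tested, and 1 was called, HNRNPF, with a list median of −0.02. HNRNPL was at 296 ± 59.9 against 336 ± 107 FPKM (log2 −0.16, SE 0.12), and HNRNPH2, a close relative of HNRNPF, at 88.4 ± 16.8 against 83.1 ± 16.5 (log2 0.09, SE 0.10). The 10 SR proteins had a median of 0.02 and the 36 core spliceosome genes one of −0.06, with 0 called in each. Among 12 genes of the miRNA pathway 0 were called (median −0.03): AGO3, an Argonaute, differed by −0.20 (SE 0.12) and TNRC6A, its silencing partner, by 0.17 (SE 0.11).

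Of 30 translation initiation factors EIF4G2 alone was called, and 24 were negative (median −0.05). Lists of highly expressed housekeeping genes moved with the tag. The 54 cytosolic ribosomal proteins had 51 negative members and 0 called, with medians of −0.07, −0.37 and 0.17 in C, NE and TR. Nuclear genes of oxidative phosphorylation (51 tested, 44 negative, 0 called) showed −0.04, −0.31 and 0.13. In the NE pair the share of mitochondrially encoded genes went the other way, and those 13 genes had a median of 0.25 there, against 0.00 in C and −0.01 in TR, with 0 called. The part of that share in the other lists was not tested.

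Amino acid genes had the lowest median among lists with at least 10 tested members, except without the C pair, where the AP-1 factors were lower (−0.141 against −0.136). Of 27 tested genes of the ATF4 response, which raises amino acid supply under stress, SHMT2 was called lower, 24 were negative and the median was −0.20 (−0.07 in the untreated lines). CHAC1, which degrades glutathione, differed by −0.50 (SE 0.12, limma adjusted p = 0.0932), the pseudokinase TRIB3 by −0.49 (SE 0.12), PYCR1 of proline synthesis by −0.40 (SE 0.10) and the glutamine transporter SLC1A5 by −0.37 (SE 0.11), and none of these 4 passed. The tags C, NE and TR had medians of −0.47, −0.25 and 0.01, so 2 of the 3 pairs carried it. The 12 cytosolic aminoacyl-tRNA synthetases had a similar pattern (10 negative, median −0.16, 0 called), with −0.29, −0.19 and −0.01 in the tags. YARS and CARS differed by −0.22 (SE 0.10) each.

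Extracellular matrix genes had the highest median among the same lists, though not in every fit. Without the NE pair the tetraspanins (0.141) and DNA replication genes (0.140) exceeded them (0.105), and with quantile normalization the mitochondrially encoded genes did (0.160 against 0.139). Of 31 tested, FN1 and SPON1 were called higher and 0 lower, 20 were positive, and the median was 0.12 (0.02 in the untreated lines). It was positive in C (0.20), NE (0.12) and TR (0.09). COL1A1, a chain of type I collagen, was at 68.5 ± 24.7 against 53.3 ± 26.5 FPKM (log2 0.40, SE 0.11, limma adjusted p = 0.175). LAMA3, a laminin chain of epithelial basement membrane, differed by 0.35 (SE 0.12), and COL13A1, a transmembrane collagen, by −0.46 (SE 0.16). None of these 3 passed.

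Fibroblast markers other than COL1A1 were near 0: COL3A1 was listed at 0 in all 6 libraries, DCN did not exceed 0.115 FPKM and LUM 0.611. The summed level of the 6 fibroblast markers in the table was 50.7 to 97.4 FPKM in the miR-139 libraries and 34.9 to 84.1 in the scrambled ones, nearly all from COL1A1. In bulk RNA, fewer cells of a type and less RNA per cell cannot be told apart.

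Receptors and contacts of the matrix were mixed. Of 10 tested integrins 0 were called. ITGA7, a laminin receptor subunit, differed by 0.51 (SE 0.11, limma adjusted p = 0.0632) with nearly the same value in NE and TR (0.54 and 0.55) and 0.44 in C, and ITGA11, a collagen receptor subunit, by 0.58 (SE 0.15). Among 25 genes of junctions and polarity PLEKHA7 and PRICKLE1 were called higher, while 17 were negative and the list median was −0.05. CLDN7, a claudin, differed by −0.44 (SE 0.14) and JUP, plakoglobin, by 0.28 (SE 0.11). TSPAN18 was the 1 called of 15 tetraspanins (median 0.03), where CD82, a metastasis suppressor, differed by 0.49 (SE 0.12, limma adjusted p = 0.11).

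DYSF was the 1 called of 12 genes of membrane repair (median 0.01), and its relative MYOF differed by 0.05 (SE 0.11). S100A10, the partner of annexin A2, differed by 0.43 (SE 0.10, limma adjusted p = 0.0994). EMT and invasion genes (21 tested, median −0.05) had 0 called, with the actin-binding TAGLN at 138 ± 24.3 against 192 ± 43.7 FPKM (log2 −0.47, SE 0.12). Of 15 targets of YAP and TEAD, 0 were called (10 negative, median −0.13). ANKRD1, a classical target, was at 2.63 ± 0.149 against 5.21 ± 1.90 FPKM without overlap (log2 −0.73, SE 0.16, limma adjusted p = 0.0673), and the receptor kinase AXL at 198 ± 40.7 against 261 ± 50.1 (log2 −0.40, SE 0.11).

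CCNB1IP1 was the 1 called of 25 mitosis genes (median −0.004), among which the kinase CDK1 differed by −0.18 (SE 0.11). DNA replication genes had 22 of 28 positive and 0 called (median 0.04, but 0.140 without NE and −0.028 without C), with MCM6 of the replicative helicase at 0.25 (SE 0.10) and PRIM1, the small primase subunit, at −0.31 (SE 0.11). ADM was the 1 called of 27 genes of glycolysis and hypoxia (median −0.04). None was called among 27 interferon-stimulated genes (median 0.07), 13 p53 targets (−0.01), 13 NF-kB and cytokine genes (−0.01), 10 MAPK output genes (0.003), 16 cholesterol synthesis genes (−0.07), 14 endoplasmic reticulum chaperones (−0.05) or 10 heat shock genes (−0.04). The 10 AP-1 factors had 7 negative members, 0 called and a median of −0.12, which was −0.07, −0.20 and −0.11 in the tags and −0.10 in the untreated lines. Of 4 tested thyroid lineage genes PAX8 differed by 0.38 (SE 0.12, limma adjusted p = 0.243), being 0.71 in C, 0.30 in NE and 0.12 in TR.

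**Figure D5:**
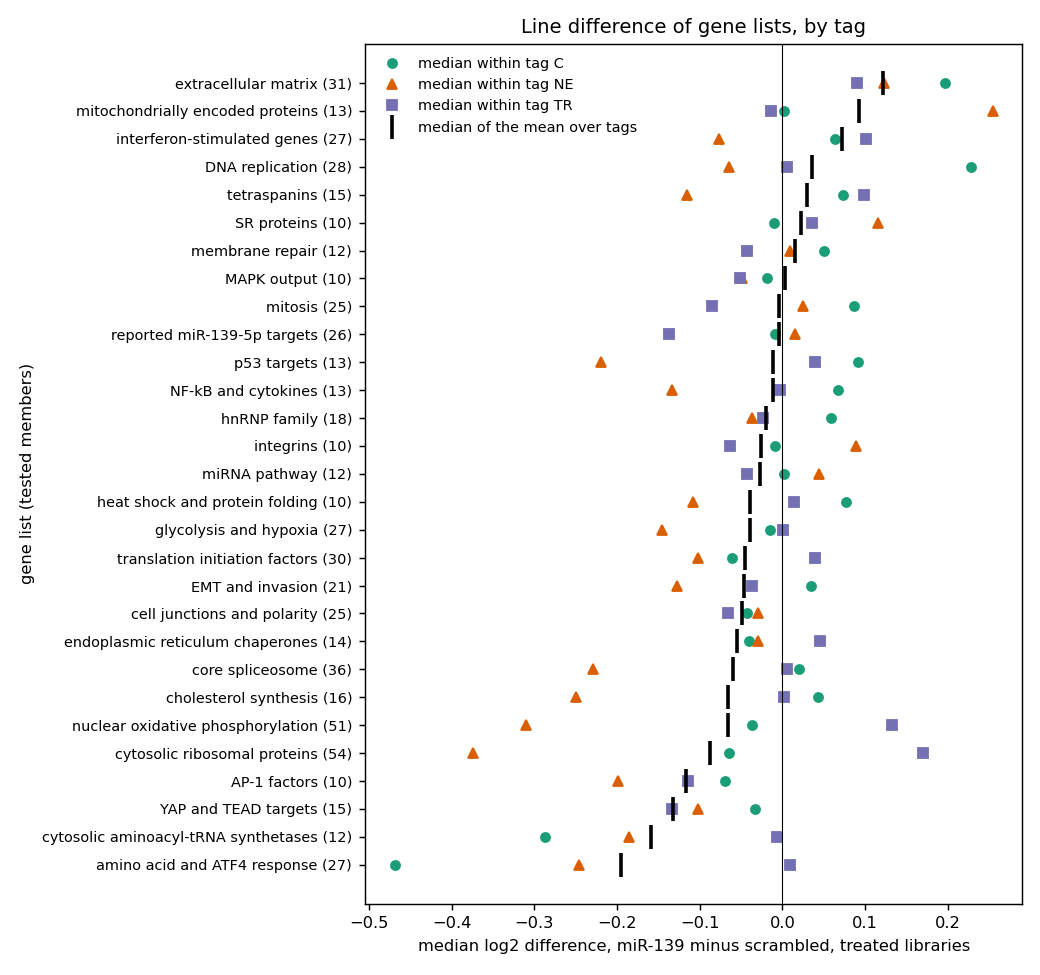
Median log2 difference between the treated lines (x axis) of each gene list with at least 10 tested members (y axis, number tested in brackets), as symbols within each tag and as a black bar for the mean over tags. Extracellular matrix genes lie right of 0 in all 3 tags, while ribosomal proteins run from −0.37 in NE to 0.17 in TR.

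Genes with a seed match had nearly the same median as other genes in the treated lines. The 895 genes with ACTGTAG had a median difference of −0.01 and 53.9% were negative, against −0.01 and 54.1% of 7027 genes without it. The 272 genes with ACTGTAGA had a median of −0.04 and 58.8% were negative. The median of site genes minus that of other genes came to −0.04, 0.11 and −0.06 in the 3 tags, with an SD of 0.09 over tags, and 0.0018 for the mean over tags. In the untreated lines site genes were higher in the miR-139 line, with medians of 0.04 for the 7-mer and 0.06 for the 8-mer against −0.01.

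The line difference of site genes was thus lower with than without doxycycline. For the 7-mer, the median of site genes minus that of other genes was 0.0018 with and 0.047 without it. For the 8-mer it was −0.03 with and 0.07 without it. Each of these 4 values is smaller in size than the SD of 0.09 over the treated tags. That SD is of single-tag values of the 7-mer with doxycycline. It does not measure the spread of the 8-mer, of the untreated lines or of the change. Values of the change within each tag are not given here. The change of the line difference had a median of −0.06 for the 7-mer (66.1% negative), −0.11 for the 8-mer (73.5% negative) and −0.02 for genes without a site (55.2% negative). Genes with the 7-mer have longer 3′ UTRs (median 3305 against 1160 bases). Among 3′ UTRs over 2090 bases the medians were −0.06 for 654 genes with the site and −0.01 for 1985 without it, and among those of 770 to 2090 bases −0.07 for 197 and −0.02 for 2444. Among shorter 3′ UTRs they were −0.04 for 44 and −0.03 for 2598, close to each other. Genes are not replicates, and no test is attached to these medians.

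Agreement between tags across all genes was weak. Over 9781 genes the treated line difference in C had a Pearson r of 0.13 with that in NE and 0.11 with that in TR, and NE with TR had 0.06. The treated and untreated line differences within a tag share no library, and had r of 0.16 in C, 0.45 in NE and 0.34 in TR. Across different tags those values ran from −0.19 to 0.15. The points share the tag and its library properties, so these r describe the libraries and carry no p.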

How the data were processed

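The authors deposited FPKM values per gene for 12 libraries of polyA RNA (Trizol, strand-keeping dUTP kit, HiSeq2500, per the labels' protocols). Builds GRCh37 and hg19 and the tools STAR 2.5, HTSeq, Cufflinks, Bowtie 1.0.0, TopHat2 2.0.10, SAMtools (0.1.19, 1.3.1) and FastQC 0.11.0 are listed in the submitters' processing notes. Not given in the sources used here is which of them made the FPKM, with what annotation and strand setting. FPKM carry no read counts. Chromosomes 3 to 9 were not analysed here. FPKM were taken as log2(FPKM + 1). Genes with a mean of at least 1 FPKM over the 6 treated libraries (9781 of 37471) were tested two-sided with limma 3.58.1 in R 4.3.3, with a variance trend, the tag as a replicate block, Benjamini-Hochberg adjustment and a threshold of 0.05. The fit was tested on simulated data, where it missed many of the changed genes and nearly all of those with the smaller change. Tags were taken as pairs because deviations from group means correlated between libraries of the same tag (r 0.63, 0.76 and 0.64 in C, NE and TR). Those of different tags (−0.60 to 0.03) are pulled below 0 because deviations from a mean sum to 0. Alternatives were no block, all 12 libraries, another pseudocount (0.1), filter, scaling or variance model, and each pair left out. Seed sites were searched in GENCODE 29 3′ UTRs, with 7597 genes matched by symbol and 325 by synonym.

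Named genes were HNRNPF and EIF4G2, every called gene, the 10 highest and 10 lowest differences at 5 FPKM or more with one direction in all tags, and from each list the 3 members with the smallest p. TSHR, NKX2-1 and other markers come from fixed marker lists. CXCR4, IGF1R, HNRNPH2, MYOF and some other list members were named after their values were seen, to account for a list. Of the genes this takes in, 1 called gene and a few list members are not reported here by name, and stay in the counts and medians. Members and lists were chosen with earlier results of these data known.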

Additional observations from a re-analysis of the deposited data

Results flagged for a closer look

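HNRNPF stood out because its line difference was not the same after 96 h with doxycycline as at the start without it. It was −1.11 (SE 0.11) in the treated and −0.02 (SE 0.14) in the untreated libraries, a difference of −1.09 (SE 0.11, limma adjusted p = 0.00168 over 9781 genes), negative in 3 of 3 tags. All 3 fits that left out a pair of libraries kept the value between −1.12 and −1.05 and missed the threshold (adjusted p 0.458 without C, 0.0629 without NE and 0.0821 without TR).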

How the results depend on the processing

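The 30 calls between the treated lines became 0 without the replicate block, 0 with no filter, 9 with no variance trend, 11 with all 12 libraries, 56 with upper quartile scaling and 99 at 5 FPKM or more, including all 24 of the 30 genes still tested. Leaving out a pair gave 18 (without NE, with 13 of the 30 kept) to 83 (without TR). Fits without C or TR pooled all variances, since their prior degrees of freedom were infinite. All 30 kept their direction in every fit that tested them. Because each had one direction in all 3 tags, only upper quartile scaling and quantile normalization could have turned it. In the other fits that outcome was fixed beforehand. The 4 untreated calls became 0 without the replicate block, 1 with quantile normalization and 7 to 18 with a pair left out. The 1 call in the difference of line differences became 0 without the replicate block (HNRNPF −1.09, adjusted p = 1.00) and 0 with any pair left out (HNRNPF −1.12 to −1.05). Without the block, 87, 40 and 42 genes had an unadjusted p under 0.05 in these 3 comparisons. Medians of 8 of 29 lists turned sign without NE (core spliceosome 0.032, EMT and invasion 0.033, p53 targets 0.080, oxidative phosphorylation 0.062, hnRNP 0.024, cytosolic ribosomal proteins 0.052, cholesterol synthesis 0.009 and MAPK output −0.034), 3 without C, 4 without TR, 7 with upper quartile scaling, 5 with quantile normalization and 2 with no filter. Medians that moved by more than their spread over tags were these. At 5 FPKM or more, junctions and polarity had −0.0687 and YAP and TEAD targets −0.0543. With upper quartile scaling, junctions and polarity had −0.00904 and MAPK output 0.0419, and with quantile normalization MAPK output had 0.0474. With a pair left out, SR proteins had 0.0157 to 0.109, extracellular matrix 0.105 to 0.192, chaperones of the endoplasmic reticulum −0.0848 to 0.0639, MAPK output −0.0585 to −0.0146 and YAP and TEAD targets −0.0844 to −0.0639. The direction of DUOXA1 (−0.18) turned without TR (0.013, range −0.38 to 0.013). Upper quartile scaling shifted all genes by 0.04. The cause was not tested. FPKM without counts give no detection limit, and with 3 libraries per line small differences of genes with low values cannot be resolved.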

Other observations

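In the untreated lines the lowest adjusted p belonged to CTD-2545G14.7, a transcript with no match in the reference used here. It was at 22.5, 13.9 and 35.7 FPKM in the untreated miR-139 libraries and at 10.3, 0.0709 and 1.23 in the untreated scrambled ones (log2 2.97, SE 0.26), in the order C, NE, TR. With doxycycline it was at 8.26, 0.0138 and 67.0 against 16.9, 13.07 and 49.3, and its differences were −0.95, −3.79 and 0.43. AC104698.1 was also higher in the untreated miR-139 line (log2 1.00, SE 0.21) and differed by 0.17 (SE 0.20) with doxycycline. RPL9P9, a ribosomal protein pseudogene, was at 23.6 FPKM in the treated scrambled C library and at 0 to 0.0971 in the other 11.

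By chromosome, the median difference between the treated lines ran from −0.05 on chromosome 11 (687 genes, 36.8% positive) to 0.03 on chromosome 13 (217 genes, 59.9% positive), and in the untreated lines the same chromosomes had −0.05 and 0.08. Of the 30 genes that differed, 28 were located in GENCODE 29, 16 overlapped another annotated gene and 7 of these had a tested partner. None of the 7 partners passed, with differences of −0.02 to 0.38.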
